A study of Sorghum bicolor with 6 samples.

Results

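The 4 genes described here are the sorghum dwarfing genes Dw1 (Sobic.009G229800.v3.2), Dw2 (Sobic.006G067700.v3.2) and Dw3 (Sobic.007G163800.v3.2) and the stem-pith gene Dry (Sobic.006G147400.v3.2), also called D. They were picked by identifier from the 34129 gene models of the deposited files, and all 4 were found. Their names come from published sorghum gene names and could not be checked against a table used here. Leaf RNA was sequenced from 4-week-old Sorghum bicolor plants in 2 groups of 3 libraries. One group, SbGhd7 OE, overexpressed SbGhd7, a CCT-domain regulator of flowering, and the other carried an empty vector. The labels do not give the promoter that drives SbGhd7, the recipient line, the alleles it carries at the Dw and Dry loci, the transformation events, or whether a library came from 1 plant or a pool. A p-value here therefore reflects only how much these libraries vary, some of which may be technical.

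Sorghum height is set largely by the length of stem internodes, and the recessive dwarfing alleles used in breeding shorten them. Dw1 encodes a protein that acts positively in brassinosteroid signalling, Dw3 encodes an ABCB-type auxin efflux transporter and is the counterpart of maize Br2, and Dw2 encodes an AGC-type protein kinase. Dry encodes a NAC transcription factor. Its functional allele gives a dry, air-filled stem pith in which parenchyma cells die, and loss-of-function alleles give a juicy stem. In rice, Ghd7 is named for its effects on grain number, plant height and heading date. The comparison here asks whether the leaf transcripts of these stem genes differ when the sorghum gene is overexpressed, and how large a difference the libraries could have missed.

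The 4 genes showed 2 patterns. Dry was a rare transcript in empty vector leaves and gave no counts in SbGhd7 OE leaves, and it was the 1 gene of the 4 that passed the test. Dw1, Dw2 and Dw3 were all clearly detected in leaf, none of them passed the test, and the 95% interval of each fold change lay inside a 2-fold change in either direction. All 4 passed the filter on low counts, Dry through its empty vector libraries alone. Over all 20820 tested genes, 53.3% were called at an adjusted p under 0.05 by edgeR's quasi-likelihood test, 28.0% as higher and 25.3% as lower in SbGhd7 OE, so 1 call among 4 genes is read against that background.

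Library totals lay between 27844391 and 35830080 counts. SbGhd7 (Sobic.006G004400) had 10339 to 20367 counts in the SbGhd7 OE libraries and 35 to 60 counts in the empty vector libraries, so all 6 libraries matched their labels. All 5 leaf markers examined (PEPC, PPDK, NADP-ME, RBCS and CA1, genes of C4 photosynthesis and the Calvin cycle) were high, at 203.5 CPM (counts scaled by TMM to a common library total) or more in every library. They did not move together: PEPC, PPDK and CA1 were higher in SbGhd7 OE (edgeR log2 fold changes 2.13, 1.17 and 4.36; adjusted p = 6.6e-05, 0.0026 and 1.2e-05), NADP-ME was lower (-0.99, adjusted p = 0.0012) and RBCS was not called (-0.39, adjusted p = 0.15). Their summed level, 33144 to 45775 CPM in SbGhd7 OE and 16885 to 18685 CPM in empty vector leaves, mainly follows the first 3. The part of these differences in the results below was not tested. No marker list for stem or meristem was available. Levels are given for each gene across libraries and are not compared between genes, because transcript lengths were not used here.

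**Figure D1:**
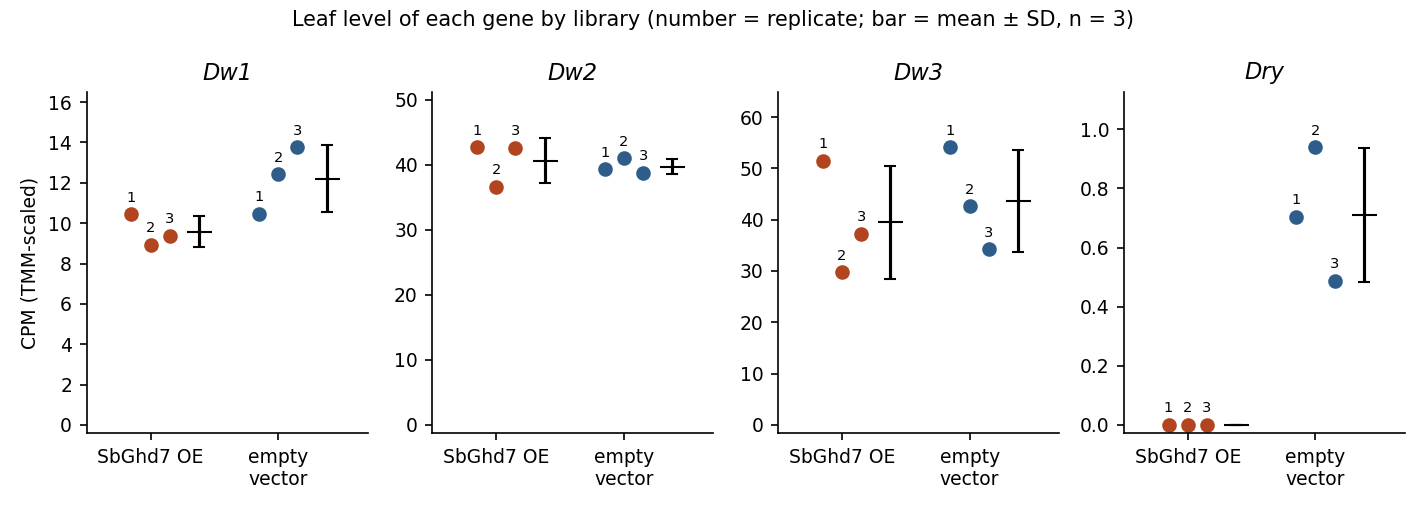
TMM-scaled CPM (y axis, a separate scale from 0 for each gene) of Dw1, Dw2, Dw3 and Dry in SbGhd7 OE and empty vector leaves; points are libraries numbered by replicate, and bars are the mean ± SD of 3 libraries. Dry is at 0 in all 3 SbGhd7 OE libraries and between 0.487 and 0.939 CPM in empty vector leaves, while the 2 groups of Dw2 and of Dw3 overlap.

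Dry, the NAC factor of stem pith, had 0, 0 and 0 counts in SbGhd7 OE replicates 1, 2 and 3, against 22, 29 and 18 counts in empty vector replicates 1, 2 and 3. The empty vector libraries therefore held a low but repeated signal in leaf, 69 counts in all, and the SbGhd7 OE libraries held none. In scaled terms the transcript was at 0 CPM in SbGhd7 OE and at 0.710 ± 0.226 CPM in empty vector leaves (SD, n = 3 each). Within the empty vector group the highest library was replicate 2, at 0.939 CPM, and the lowest was replicate 3, at 0.487 CPM. The difference between groups was called by edgeR's quasi-likelihood test (adjusted p = 0.0018 over all tested genes). Because leaf is a mixture of cell types, fewer cells that express Dry and less Dry RNA per cell cannot be told apart.

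How far Dry fell can be given only as a bound, since the SbGhd7 OE group is at 0. Against a floor of 3 counts over the whole SbGhd7 OE group, which corresponds to 0.0351 CPM, Dry was at least 19.8-fold lower in SbGhd7 OE than in empty vector leaves. That floor covers counting error in the SbGhd7 OE group only, and it assumes that each count is a separate fragment. The empty vector level is taken as exact in it. Inverting the quasi-likelihood test also takes in the spread between the empty vector libraries and a variance estimate drawn from other genes. The SbGhd7 OE libraries, all at 0, show no spread to take in. The inverted test gave a 95% interval whose upper end was a log2 fold change of -4.29. Changes smaller than a 19.5-fold fall therefore lay outside that interval, and it had no lower end. How a deposited value relates to a sequenced fragment is not known, and values of 2 were 2.91 to 3.57 times as frequent as values of 1 in the libraries. With all values halved, the floor-based bound was at least 10.1-fold lower and the inverted bound was an 11.3-fold fall (log2 fold change -3.50). Halved, Dry missed the count filter, and in a fit without that filter it was still called (edgeR adjusted p = 0.0020).

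The difference in Dry counts did not rest on 1 empty vector library. When each of these was left out in turn, the edgeR adjusted p of Dry lay between 0.0050 and 0.010. The floor-based bound then lay between at least 16.7-fold and at least 23.3-fold lower. Leaving out a SbGhd7 OE library could only leave that group at 0. Adjusted p was then 0.0037 to 0.0050 (edgeR), and the bound, at least 12.7-fold to at least 13.6-fold lower, reflects the smaller depth against the same floor. In an exact two-sided permutation test of log2(CPM + 1) p was 0.1, which is as low as 6 libraries split 3 and 3 can reach. Over all 34129 gene models, 32 were at 0 in the SbGhd7 OE group with 10 or more counts in every empty vector library, and 24 of them were tested (0.115% of the tested genes). Such a gene passes the filter through the empty vector group alone, so that share is set in part by the filter. Of these 24 genes 7, Dry included, had an empty vector sum of 69 counts or fewer.

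Dw1, the brassinosteroid-signalling gene, was the dwarfing gene with the most nearly separate groups. It had 281, 274 and 260 counts in SbGhd7 OE replicates 1, 2 and 3, against 327, 384 and 508 counts in empty vector replicates 1, 2 and 3. After scaling these were 10.4, 8.92 and 9.37 CPM in SbGhd7 OE, against 10.5, 12.4 and 13.8 CPM in empty vector leaves. The highest SbGhd7 OE library and the lowest empty vector library, both replicate 1, nearly touched, at 0.999 times, but the groups did not overlap. Separate groups are common in these data: they were found for 64.0% of the tested genes, and for 31.5% with SbGhd7 OE the lower group, as for Dw1 and Dry. The means were 9.58 ± 0.783 CPM in SbGhd7 OE and 12.2 ± 1.66 CPM in empty vector leaves (SD, n = 3 each).

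The log2 fold change of Dw1 was -0.35 (SE 0.157), and it missed the threshold (edgeR adjusted p = 0.091, unadjusted p = 0.054). Its 95% interval ran from -0.71 to 0.0084 on the log2 scale. A fall of Dw1 beyond 1.64-fold and a rise beyond 1.01-fold therefore lay outside the interval. With this SE, an estimated log2 fold change of 0.42 in size, or 1.34-fold, would have been called. A true change of that size could still be missed, because the test acts on the estimate. Scaling by library size alone gave such an estimate (-0.42, adjusted p = 0.047, edgeR), and with that scaling the median of all tested genes was -0.074 instead of -0.0042. The sign was negative in all 17 alternative fits, and the call was made in that 1 alone. Without empty vector replicate 3, the highest library, the log2 fold change shrank to -0.27 (edgeR adjusted p = 0.22). Leaving out empty vector replicate 1, the lowest of its group, gave -0.47 (edgeR adjusted p = 0.063, 95% interval -0.87 to -0.065). The exact permutation test gave p = 0.1, again the smallest possible.

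Dw3, the auxin efflux gene, varied more between libraries of the same group than the other dwarfing genes. It had 1385, 914 and 1034 counts in SbGhd7 OE replicates 1, 2 and 3, against 1691, 1315 and 1265 counts in empty vector replicates 1, 2 and 3. These correspond to 51.5, 29.8 and 37.3 CPM in SbGhd7 OE, against 54.1, 42.6 and 34.2 CPM in empty vector leaves. Replicate 1 was the highest library in both groups, and the groups overlapped widely, with the SbGhd7 OE library higher in 3 of the 9 pairings of a SbGhd7 OE with an empty vector library. The SD was 27.9% of the mean in SbGhd7 OE and 22.8% in empty vector leaves. The means were 39.5 ± 11.03 CPM in SbGhd7 OE and 43.6 ± 9.95 CPM in empty vector leaves (SD, n = 3 each).

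The log2 fold change of Dw3 was -0.14 (SE 0.229) and was not called (edgeR adjusted p = 0.62; exact permutation p = 0.7). Its 95% interval, -0.67 to 0.38, was the widest of the 3 dwarfing genes, and 59.4% of all tested genes had a smaller SE. A fall beyond 1.59-fold and a rise beyond 1.31-fold lay outside it. An estimated change of 1.54-fold would have been needed for a call. The direction of Dw3 is not settled by these libraries, because its value was 0.023 without empty vector replicate 1 and 0.028 without SbGhd7 OE replicate 2. Some dwarf lines of sorghum carry a tandem duplication inside Dw3. Counts per gene model do not show which allele gave them, so these values are the summed transcript of whatever allele the plants carried.

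Dw2, the protein kinase gene, had the smallest SE of the 3 dwarfing genes. It had 1147, 1124 and 1182 counts in SbGhd7 OE replicates 1, 2 and 3, against 1228, 1265 and 1431 counts in empty vector replicates 1, 2 and 3. Scaled, these were 42.6, 36.6 and 42.6 CPM in SbGhd7 OE, against 39.3, 40.9 and 38.7 CPM in empty vector leaves. All 3 empty vector libraries lay inside the range of the SbGhd7 OE group, whose low library was replicate 2. The means were 40.6 ± 3.48 CPM in SbGhd7 OE and 39.7 ± 1.15 CPM in empty vector leaves (SD, n = 3 each), so the SD was 8.57% and 2.90% of the mean.

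The log2 fold change of Dw2 was 0.034 (SE 0.107) and was not called (edgeR adjusted p = 0.81; exact permutation p = 0.8). Only 4.95% of the tested genes had a smaller SE, and 3.15% had a smaller fold change. The 95% interval, -0.21 to 0.28, left a fall beyond 1.16-fold and a rise beyond 1.21-fold outside it. An estimated 1.22-fold change would have been enough for a call. Its sign turned with the scaling (-0.037 by library size alone and -0.024 by the upper quartile).

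**Figure D2:**
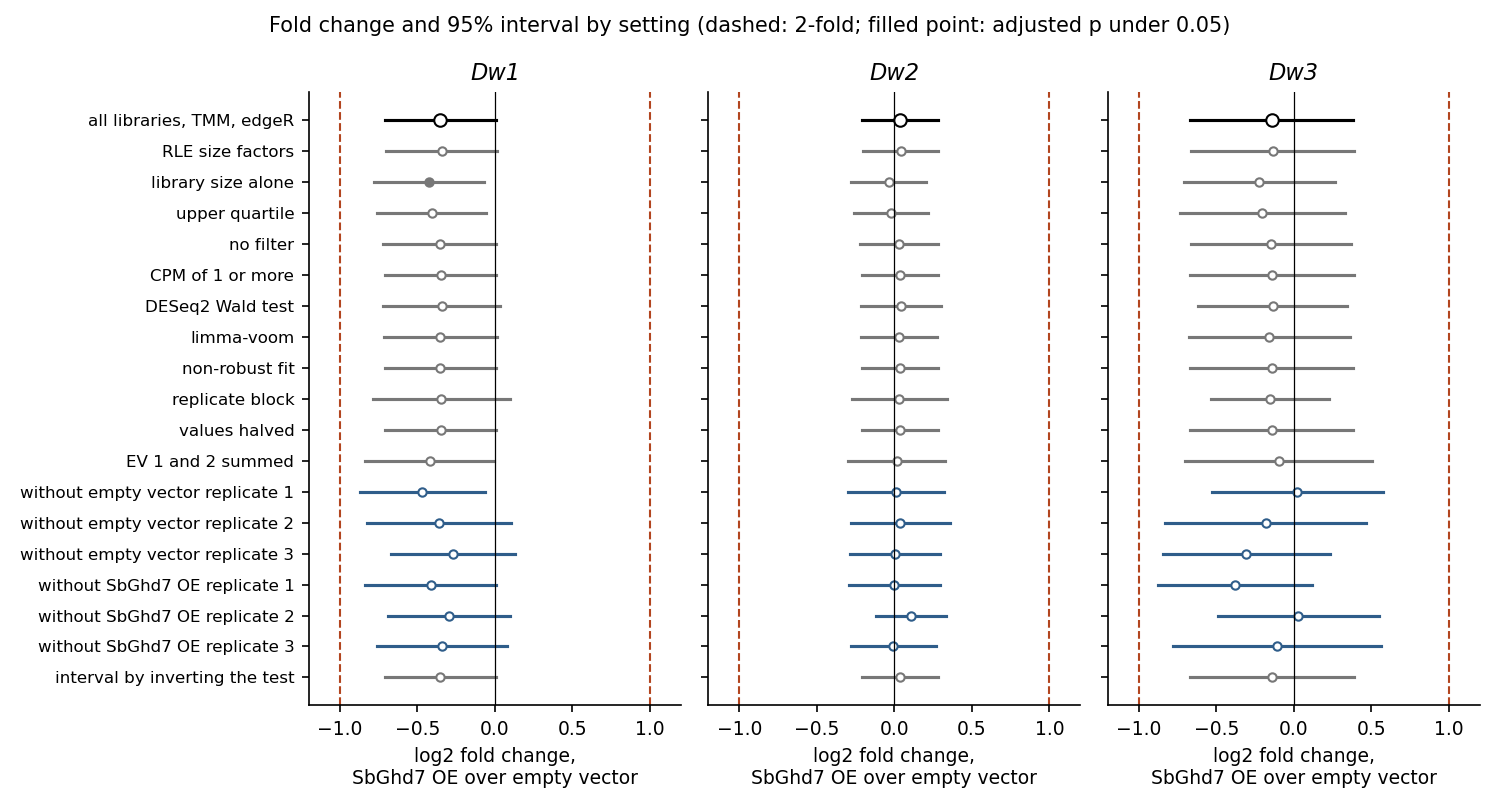
Log2 fold change (x axis, SbGhd7 OE over empty vector) and 95% interval of Dw1, Dw2 and Dw3 under each setting (rows); black is the fit described in the text, blue leaves out 1 library, grey is any other setting, dashed lines mark a 2-fold change, and filled points have an adjusted p under 0.05. The 1 filled point is Dw1 with scaling by library size alone, and no interval reaches a dashed line, the farthest ends being -0.88 and 0.58, both of Dw3.

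For the dwarfing genes the data thus bound the size of a leaf difference. In 2 one-sided tests against a 2-fold change, adjusted over all tested genes, the edgeR estimates gave adjusted p = 0.0061 for Dw1, adjusted p = 6.8e-04 for Dw2 and adjusted p = 0.0099 for Dw3. Among all tested genes, 40.6% passed that test and 41.9% had a 95% interval wholly within a 2-fold change, so such bounds were common. Across the alternative settings, single libraries left out included, the interval of Dw1 reached at most from -0.87 to 0.13, that of Dw2 from -0.30 to 0.36 and that of Dw3 from -0.88 to 0.58. The farthest of these ends is a 1.83-fold fall. The median size of the log2 fold change over all tested genes was 0.62, and 30.1% of the genes had a smaller change than Dw1, against 12.7% for Dw3. Tb1 (Sobic.001G121600), the branching regulator, had 0 counts in all 6 libraries, so its change could not be measured in leaf.

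**Figure D3:**
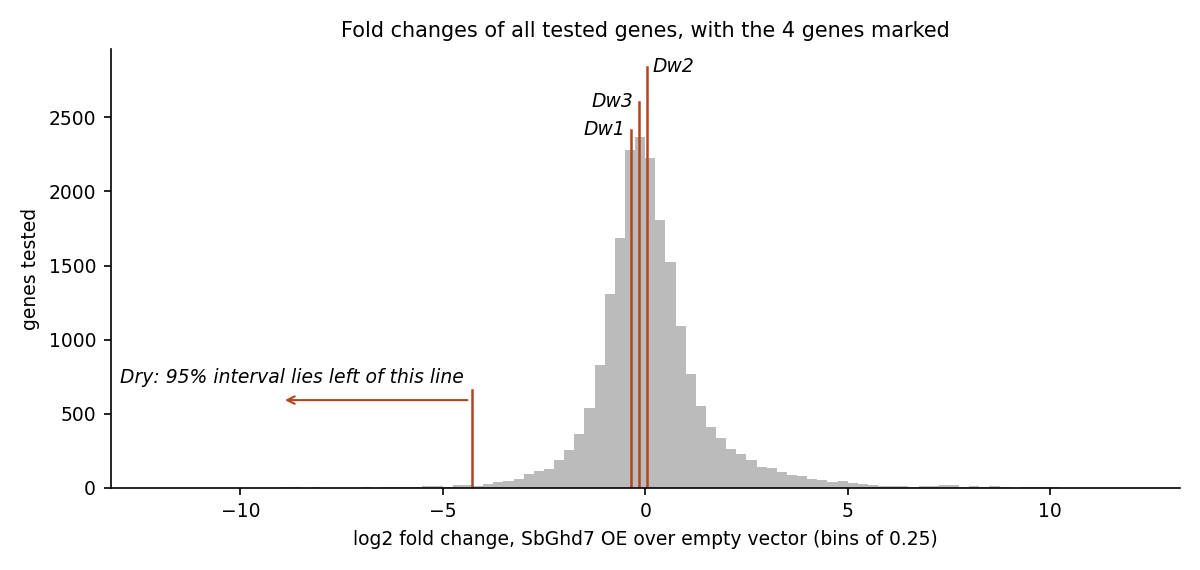
Number of tested genes (y axis) by log2 fold change of SbGhd7 OE over empty vector (x axis, bins of 0.25), with the fitted values of Dw1 (-0.35), Dw3 (-0.14) and Dw2 (0.034) as lines. For Dry the line is the upper end of its 95% interval, -4.29, and the arrow shows that the interval has no lower end.

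The tested gene models beside each of the 4 genes in identifier order had log2 fold changes of both signs, called or not. Sorghum identifiers are numbered along the chromosomes, and by their identifiers Dw1 lies on chromosome 9, Dw3 on chromosome 7, and Dw2 and Dry on chromosome 6, which also carries SbGhd7. Of the 5 models on each side of each gene, 40 in all, 28 were tested. Among these 7 were higher and 6 lower in SbGhd7 OE (46.4% called, against 53.3% of all tested genes), and 15 were not called. Dw2 had the most called neighbours, 2 higher and 4 lower of 7 tested, with log2 fold changes between -0.77 and 0.80. Beside Dw1, 2 of 8 were called, both higher. Beside Dw3, 2 of 6 were higher and 1 was lower.

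Of the 7 tested models around Dry, 1 was higher, 1 was lower and 5 were not called. The lower one was the next model after it, Sobic.006G147450, which is singled out here after its values were seen. It had 4, 4 and 3 counts in SbGhd7 OE replicates 1, 2 and 3, against 47, 46 and 41 counts in empty vector replicates 1, 2 and 3. Its levels were 0.129 ± 0.0203 CPM in SbGhd7 OE and 1.37 ± 0.223 CPM in empty vector leaves (SD, n = 3 each), a log2 fold change of -3.36 (SE 0.460, edgeR adjusted p = 4.9e-04). Positions and strand were not used here, so whether the models of Dry and Sobic.006G147450 overlap or share reads was not tested. The count of Dry is uncertain to that extent.

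**Figure D4:**
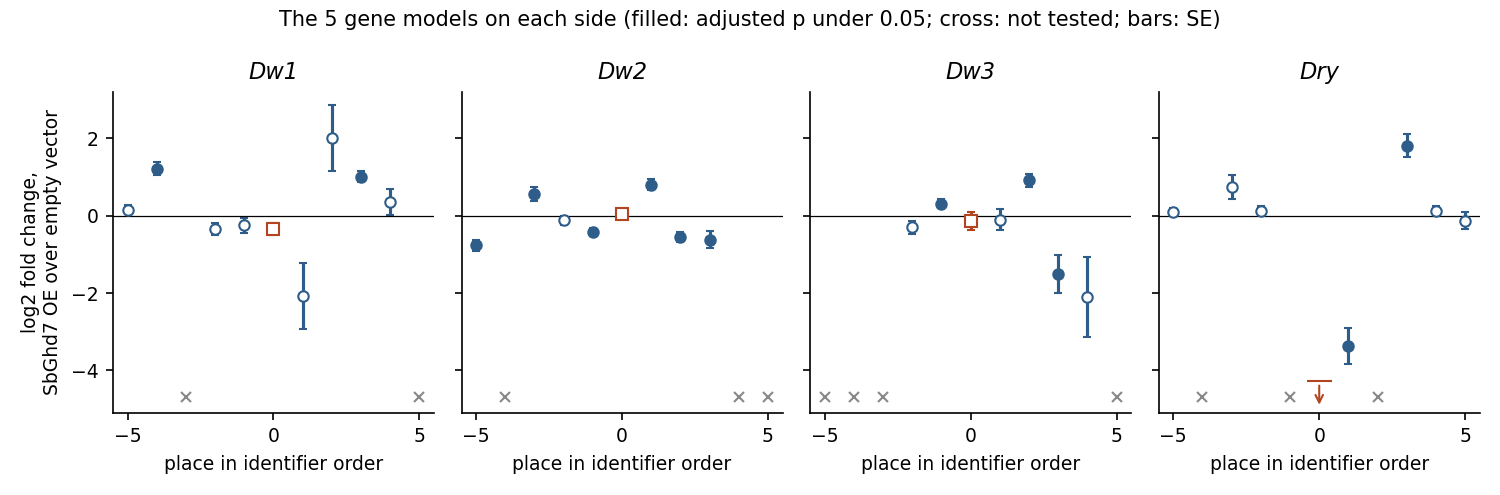
Log2 fold change with SE (y axis, SbGhd7 OE over empty vector) of the 5 gene models on each side of Dw1, Dw2, Dw3 and Dry (x axis, place in identifier order with the named gene at 0); squares are the named genes, circles the neighbours, filled symbols have an adjusted p under 0.05, and crosses were not tested. Dry is drawn as the upper end of its interval, -4.29, with an arrow, and the model after it stands at -3.36 among neighbours between -0.13 and 1.81.

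The genes whose leaf pattern was most like that of each gene were found among 11776 others with a mean of 10 CPM or more, as the smallest root mean square difference of centred log2 CPM over the 6 libraries. For Dw2 it was Sobic.009G191200, with a difference of 0.0175 and a level of 36.5 ± 3.07 CPM in SbGhd7 OE and 34.9 ± 1.03 CPM in empty vector leaves (SD, n = 3 each). Of the 11776 genes, 438 lay within 0.1 of Dw2 and 111 within 0.1 of Dw1. The nearest to Dw1 was Sobic.003G445100, with a difference of 0.0380. For Dw3 only Sobic.007G137350 came within 0.1, at 0.0853. For Dry none did, and the nearest was Sobic.001G426400, with a difference of 0.187 and a level of 10.4 ± 1.82 CPM in SbGhd7 OE and 128.6 ± 24.3 CPM in empty vector leaves (SD, n = 3 each). The centred values of Dry depend on the prior count of 2 used for the log scale, because 3 of its libraries are at 0. Dry itself, at 0.710 CPM in empty vector leaves, lies below the minimum of 10 CPM, so genes as low as Dry were not candidates. The lack of a gene within 0.1 is therefore no measure of how unusual Dry is. The log2 fold change of Sobic.001G426400 was -3.62, a smaller fall than the upper end of the Dry interval, -4.29. With all values halved, that upper end was -3.50, and the interval then took in -3.62.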

How the data were processed

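The authors deposited 1 whole number per gene model and library, treated here as estimated counts; rounding changed none. Per the submitters' processing notes, HISAT2 (2.2.1), StringTie (2.2.1) and DESeq2 (2.11.40.7) were used, without stated roles. Per the labels' protocols, TRIzol RNA was treated with DNase I and made into NEBNext Ultra libraries. No genome build, strand setting or filter is given in the sources used here, so overlapping, antisense and related genes may share reads. The reference table (32945 genes) matched 0 of the 34129 identifiers, so no positions, lengths or sequences are printed.

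Genes were filtered with filterByExpr (20820 of 26611 with a count were tested), scaled by TMM and fitted over the whole table with edgeR 4.0.16 (robust quasi-likelihood F-test, group as the only term, R 4.3.3, Benjamini-Hochberg adjustment at 0.05). The SE is the size of the log2 fold change divided by the square root of F, and 95% intervals use the t quantile at the fit's total degrees of freedom. For Dry the F-test was inverted over fixed fold changes. The estimated change needed for a call is the t quantile at the largest p called (0.0266) times the SE. The procedure was tested on simulated data in which far fewer genes changed than were called here. That simulation held no change as large as the bound given for Dry, so it does not cover that bound. Exact permutation tests used scipy 1.17.1. DESeq2 1.42.0 and limma-voom (limma 3.58.1) were alternatives.

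The members and lists were chosen with earlier results of these data known. Named genes are by rule the 4 members, SbGhd7, Tb1 and the nearest pattern of each member, besides the 5 leaf markers and 1 neighbour of Dry, which was chosen after its values were seen. Replicate numbers, taken from the titles, were not treated as pairs. Empty vector replicates 1 and 2 were the closest pair (median chi-square per gene 1.98, against 4.11 to 7.67 for the other pairs within a group). They were kept as separate libraries, with their sum as an alternative.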

Additional observations from a re-analysis of the deposited data

How the results depend on the processing

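Dry was called in all 16 alternative fits in which it was tested (edgeR, DESeq2 and limma-voom adjusted p between 1.2e-05 and 0.013). It was not tested with CPM of 1 or more in 3 libraries, nor with values halved under the usual filter, which removed it; the fit with halved values and no filter was chosen after seeing the data (log2 fold change -6.48). Its fitted value, which is no bound, was -6.77 by DESeq2, -5.29 by limma-voom and between -7.61 and -7.21 with 1 library left out. Dw1 passed with library size alone (-0.42), and leaving out 1 library gave -0.47 to -0.27 with no call. Dw2 was -0.037 by library size alone, -0.024 by the upper quartile, and -0.0062 to 0.11 with 1 library left out. Dw3 was -0.38 to 0.028 with 1 library left out. Neither Dw2 nor Dw3 was called in any setting. The count of 11087 called genes became 5798 when a log2 fold change of at least 1 was also asked for, and was 8850 to 10722 with 1 library left out; 7563 to 8857 genes then had an interval within 2-fold, against 8718.

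Deviations from the group means correlated across genes at 0.0055, -0.055 and -0.11 for same-numbered libraries of the 2 groups. Differently numbered libraries gave -0.094 to 0.11. Deviations from a mean of 3 libraries are tied to one another, so these values cannot exclude pairing. The numbers were not read as pairs. With the replicate number as a block, no call among the 4 genes changed: the log2 fold changes were -0.35 for Dw1, 0.031 for Dw2, -0.15 for Dw3 and -7.47 for Dry (edgeR adjusted p = 0.013), 9848 genes were called and 8168 had an interval within 2-fold.

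With 0 counts in SbGhd7 OE, depth limits Dry to a bound, and at 18 to 29 counts per empty vector library its level there is imprecise.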

Other observations

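Within the SbGhd7 OE group, replicate 2 was the library lowest in SbGhd7 itself, at 336.5 CPM against 642.8 CPM in replicate 1 and 734.0 CPM in replicate 3. The same library was the lowest of the group for Dw1 (8.92 CPM), Dw2 (36.6 CPM) and Dw3 (29.8 CPM). It was also the lowest of the group for 38.3% of all tested genes, against 28.1% for replicate 1 and 33.1% for replicate 3, and for 4 of the 5 leaf markers (PEPC, PPDK, NADP-ME and CA1). With 3 libraries no relation between these levels can be tested, and Dry, at 0 in all 3, adds nothing to it.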
